A study of Homo sapiens with 6 samples.

Results

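The genes described here encode the SR proteins, the heterogeneous nuclear ribonucleoproteins (hnRNPs) and a set of core and regulatory splicing factors, measured by RNA-seq in NCI-H460 cells with and without knockdown of PRMT5. Members were taken by gene name: the SRSF genes, the HNRNP genes without pseudogenes, the SF3A and SF3B subunits, U2AF1 and U2AF2, the PRPF genes, CLK1 to CLK4, TRA2A and TRA2B, and RBM5, RBM10, RBM17, RBM22, RBM25 and RBM39. The set was chosen with earlier results of these data known, so its shares are described beside those of all genes and not tested. The rule found 73 genes among 58825 annotated genes, and 69 of them were among the 20295 genes that passed the filter on low counts. They comprised 25 hnRNP genes, 12 SR genes, 2 TRA2 genes, 4 CLK kinase genes, 9 SF3A or SF3B genes, 2 U2AF genes, 13 PRPF genes and 6 RBM genes. The 4 genes that were not tested were HNRNPCL1, HNRNPCL2, HNRNPCL3 and HNRNPCL4, whose mean FPKM did not exceed 0.0433 in either group. NCI-H460 is a human lung cancer line, known in the field as a large cell carcinoma and labelled adenocarcinoma in the sample descriptions. Both groups carried a lentiviral hairpin and were grown in RPMI-1640 medium. By the sample titles the control group (NC-shRNA, 3 libraries) had one against GFP and the knockdown group (PRMT5-shRNA, 3 libraries) one against PRMT5. The paper calls the former a control shRNA and names no target for it. It states that stable PRMT5 knockdown cells were selected with 2 μg/ml puromycin. The comparison asks how the RNA of these genes differed after loss of the arginine methyltransferase. All libraries came from 1 cell line, which of the designed PRMT5 hairpins they carried is not given in the sources used here, and p-values measure the spread between these cultures only.

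Splicing removes introns through the spliceosome, in which U1 and U2 small nuclear ribonucleoproteins first mark the splice sites and the U4/U6.U5 tri-snRNP then joins to build the active site. U2AF reads the end of the intron, and the SF3A and SF3B proteins hold U2 at the branch point. SR proteins mostly promote the use of nearby exons from exonic sites and are phosphorylated by CLK and SRPK kinases, whereas hnRNPs coat nascent RNA and often oppose exon inclusion. PRMT5 places symmetric dimethyl marks on arginines of Sm proteins and of several hnRNPs and SR proteins, so these genes belong to the machinery on which the enzyme is known to act. RNA-seq at the gene level measures the RNA of the factors and neither their methylation nor their splicing activity.

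The targeted gene, PRMT5, stood at a CPM (counts relative to the TMM-scaled size of the library) of 143, 127 and 128 in the controls. After knockdown it stood at 45.8, 45.6 and 38.3, a log2 fold change of -1.62. Total counts ranged from 53531257 to 70518401 per library. Between 1214 and 1319 genes per library had exactly 4 counts, against 462 to 546 with 3 and 283 to 308 with 5, so a count was not read as 1 fragment. The summed FPKM of 5 epithelial markers (KRT8, KRT18, KRT19, EPCAM, CDH1) was 283 to 313 in the controls and 264 to 276 after knockdown. The keratin genes KRT8, KRT18 and KRT19 gave nearly all of that sum. EPCAM, at 0.32 to 0.52 FPKM over all libraries, and CDH1, at 0.1 to 0.3, were low in both groups. The lung adenocarcinoma markers NKX2-1, NAPSA, SFTPB and SFTPC summed to 0.02 to 0.13 FPKM in the controls and 0.03 to 0.23 after knockdown, so the markers that would define the labelled tumour type were near 0. Summed markers of other cell types were 1.2 to 1.81 FPKM for leukocytes and 9.53 to 11.7 for fibroblasts over all libraries. Among the fibroblast markers the collagen gene COL3A1 was at 0.89, 0.94 and 1.09 FPKM in the controls and at 1.98, 1.61 and 1.99 after knockdown (log2 fold change 0.87, adjusted p = 0.11, edgeR), without overlap. DCN, which gave most of the sum, had a log2 fold change of -0.24 (adjusted p = 0.45, edgeR), and COL1A2 had 0 counts in every library. The 5 endothelial markers (PECAM1, CDH5, VWF, KDR, TIE1) summed to 1.36 to 1.48 FPKM in the controls and 1.95 to 2.47 after knockdown, higher in every knockdown library. CDH5 gave most of that sum (log2 fold change 0.30, adjusted p = 0.38, edgeR). VWF had 0 counts in every control and 128, 105 and 122 after knockdown (adjusted p = 0.034, edgeR). KDR also had 0 counts in every control, against 12, 22 and 26 (adjusted p = 0.18, edgeR). PECAM1 had 30, 5 and 8 counts against 104, 100 and 109 (adjusted p = 0.19, edgeR). TIE1 had 8 counts in PRMT5-shRNA 1 alone and was not tested. The part of COL3A1 and of the endothelial markers in the results below was not tested.

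The 6 members with the smallest p were HNRNPA2B1, HNRNPA1, TRA2A, SRSF3, SF3B3 and HNRNPH2, and RefSeq promoter sequence was at hand for 3 of them. The 250 bases before the RefSeq start of each (GRCh38.p14, printed 5′ to 3′ on the gene's own strand) are shown because these genes were lower together after knockdown. Capitals mark matches on either strand to the motifs searched. These were the letters TGACG for the core of a cyclic AMP response element, the letters CACGTG for an E-box and the letters CCAAT that name their own box. The letters GGGCGG stood for a GC box, the letters TATAAA for a TATA box, the letters GCATGCGC for NRF1 and the letters CCGGAAG for ETS factors, and none of the motifs contains another. In GENCODE release 29 the plus-strand gene SRSF3 overlaps no other gene, HNRNPA2B1 overlaps CBX3 and NFE2L3 on the opposite strand, and HNRNPH2 overlaps the readthrough annotation RPL36A-HNRNPH2 on its own strand, so reads of the last may have been divided between annotations. The HNRNPA2B1 window is chr7:26200747-26200996 on the minus strand, that of SRSF3 is chr6:36594112-36594361 on the plus strand and that of HNRNPH2 is chrX:101407972-101408221 on the plus strand.
The other 3 genes, named without sequence, lie on chromosome 12 from 54280193 to 54287088 (HNRNPA1, plus strand, overlapping AC078778.2 on that strand), chromosome 7 from 23504780 to 23532041 (TRA2A, minus strand) and chromosome 16 from 70523788 to 70577670 (SF3B3, plus strand, overlapping SNORD111 and SNORD111B on that strand).
HNRNPA2B1: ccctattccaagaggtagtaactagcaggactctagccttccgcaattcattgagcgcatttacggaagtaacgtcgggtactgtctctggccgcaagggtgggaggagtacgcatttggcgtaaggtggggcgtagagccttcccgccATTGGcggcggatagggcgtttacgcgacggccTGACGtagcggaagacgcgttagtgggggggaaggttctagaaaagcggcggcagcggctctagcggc
SRSF3: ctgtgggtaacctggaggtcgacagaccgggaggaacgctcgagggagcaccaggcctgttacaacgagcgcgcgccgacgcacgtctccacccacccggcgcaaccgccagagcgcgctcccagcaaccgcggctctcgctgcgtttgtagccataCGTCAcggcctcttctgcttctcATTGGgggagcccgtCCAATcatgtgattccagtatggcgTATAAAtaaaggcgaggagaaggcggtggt
HNRNPH2: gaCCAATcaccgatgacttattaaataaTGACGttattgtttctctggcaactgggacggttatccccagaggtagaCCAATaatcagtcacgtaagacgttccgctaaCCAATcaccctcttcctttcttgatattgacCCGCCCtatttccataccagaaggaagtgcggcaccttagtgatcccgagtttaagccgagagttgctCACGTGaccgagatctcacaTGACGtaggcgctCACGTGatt
All 3 windows held TGACG and CCAAT, in the HNRNPA2B1 window once each at 68 and 101 bases before the start. SRSF3 had TATAAA 30 bases before the start, and HNRNPH2 was the only gene of the 3 with CACGTG, which it had at 42 and 9 bases before the start.

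RNA of these splicing factor genes was slightly lower in most cases after PRMT5 knockdown. Of the 69 tested genes, 59 (85.5%) had a log2 fold change below 0, against 48.8% of all 20295 genes tested. The median log2 fold change was -0.14 with quartiles of -0.20 and -0.06, against a median of 0.01 over all genes. By the quasi-likelihood test of edgeR an unadjusted p under 0.05 was reached by 27 genes in the lower direction (39.1%), against 6.29% of all genes, and by 1 gene in the higher direction, against 6.54%. The changes were small: relative to the controls the 27 genes differed by -8.26% to -22%, with log2 fold changes from -0.12 to -0.36. No gene of the set passed Benjamini-Hochberg adjustment over all genes, the smallest adjusted p being 0.184, and only 14 genes of the whole table (0.069%) did. By CPM, in 30 genes (43.5%) all 3 PRMT5-shRNA libraries lay below all 3 NC-shRNA libraries, against 10.7% of all genes, and in 0 genes did they all lie above, against 11%. By FPKM, 26 genes were lower and 4 higher without overlap, and the share of all genes on that scale is not given here. Overlap of single members is described by CPM below unless FPKM is named. For any single gene without overlap an exact two-sided permutation test of 3 against 3 libraries gives p = 0.1, the smallest it can. In bulk RNA, fewer cells of a state and less RNA per cell cannot be told apart.

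**Figure D1:**
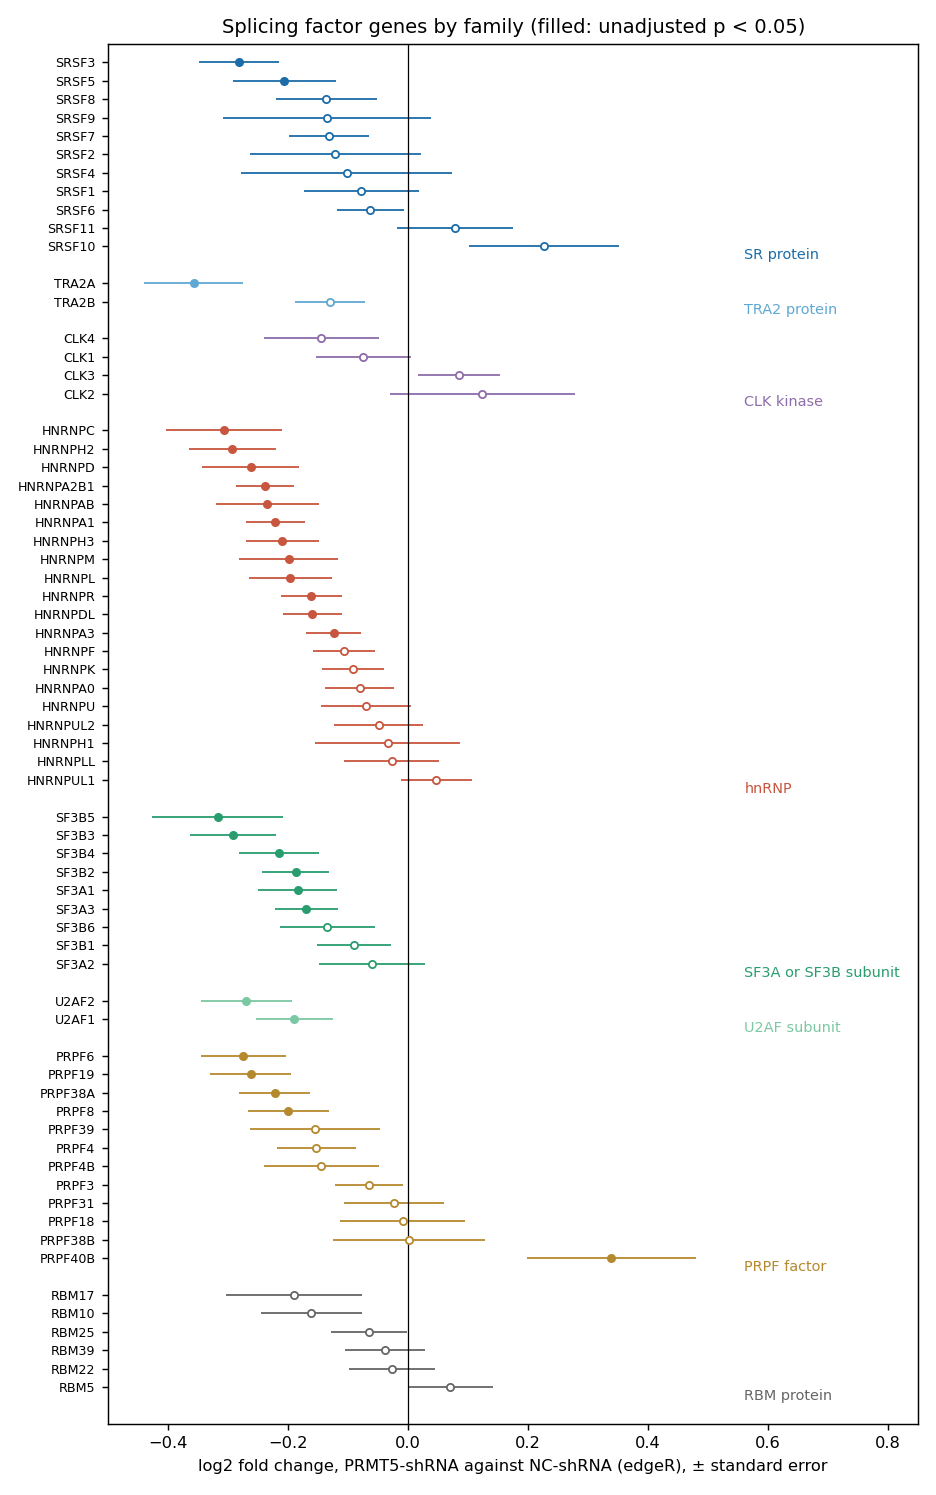
The log2 fold change of PRMT5-shRNA against NC-shRNA (x axis, log2 scale) is plotted for 66 genes grouped by family, with bars of ± 1 standard error from the edgeR fit and filled points at an unadjusted p under 0.05. All SF3A, SF3B, U2AF and TRA2 points lie left of 0, the CLK kinases lie on both sides, and PRPF40B is the one filled point on the right; HNRNPA1L2 and SRSF12 are left out for their wide errors, and 1 further gene is not shown.

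RNA levels ranged widely among the genes. On the FPKM scale, which corrects for gene length, HNRNPA1 was the most abundant gene at 208 ± 2.66 in NC-shRNA (SD, n = 3), followed by HNRNPA2B1 at 151 ± 3.32, HNRNPK at 140.1 ± 6.14, HNRNPAB at 128 ± 12.1 and HNRNPF at 126 ± 1.73. The spread of HNRNPAB overlaps those of HNRNPK and HNRNPF, so its place among the last 3 is not resolved. All control values of HNRNPK lay above all those of HNRNPF. Among the spliceosome subunits SF3B5 was at 73.6 ± 5.76, SF3B4 at 62.1 ± 2.51, PRPF8 at 58.6 ± 2.96 and U2AF2 at 38.2 ± 1.95. SRSF6, at 46.2 ± 1.65, was the highest SR gene, above SRSF7 and SRSF3, both at 30.8, while SRSF12 was close to 0 at 0.0733. The kinases CLK1 and CLK2 were near 10 (9.97 and 9.96), CLK3 was at 2.35 and CLK4 at 1.5. Summed over its genes, the hnRNP family gave 1332, 1277 and 1296 FPKM in NC-shRNA and 1225, 1204 and 1192 in PRMT5-shRNA, without overlap. The SF3A and SF3B sum was 367, 357 and 343 against 327, 328 and 312, also without overlap, whereas the SR sum was 233, 225 and 231 against 222, 232 and 212, with overlapping groups.

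Among the 12 SR genes, 9 were below 0, 2 were lower at an unadjusted p under 0.05 and 0 were higher, with a median log2 fold change of -0.11. For this and the family counts below, 6.29% of all genes tested were lower. Among genes with a mean CPM of at least 50, 60.6% were below 0 and 15.6% lower, and at 100 or more 20.3% were lower. The SR genes had a median mean CPM of 108, so 2 of 12 was not above the share at their level. SRSF3, a small SR protein that couples splicing to mRNA export, had a CPM of 284, 246 and 254 in NC-shRNA and of 215, 218 and 212 in PRMT5-shRNA. The groups did not overlap, with means of 262 ± 20.1 and 215 ± 3.0 CPM (SD, n = 3), and the spread was smaller after knockdown. Its log2 fold change was -0.28 with a standard error of 0.067 and an adjusted p of 0.212 (edgeR). SRSF5, which binds purine-rich exonic enhancers, was at 107, 101 and 108 against 96.5, 97.3 and 80.8, again without overlap (log2 fold change -0.21, adjusted p = 0.383, edgeR). SRSF1, the prototype SR protein and a known oncogene, was at 156, 178 and 169 in NC-shRNA and 163, 174 and 139 in PRMT5-shRNA. These groups overlapped (log2 fold change -0.08, standard error 0.0959, adjusted p = 0.776, edgeR), and the low value came from PRMT5-shRNA 3 alone. SRSF2, which is recurrently mutated in myeloid neoplasms, was uneven already among the controls at 80.4, 57.6 and 72.9, against 71.4, 66.5 and 56.0 (log2 fold change -0.12, standard error 0.143, adjusted p = 0.767, edgeR). SRSF10 and SRSF11 had positive log2 fold changes of 0.23 and 0.08. In SRSF10 most of the difference came from PRMT5-shRNA 3, at a CPM of 164 against 109 to 125 in the other 5 libraries. By FPKM all knockdown libraries of SRSF10 lay above all controls, at 10.13, 10.56 and 14.01 against 8.66, 9.74 and 10.06. For SRSF1, SRSF2, SRSF10 and SRSF11 a p above the threshold does not show equal levels.

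The TRA2 proteins, sequence-specific SR-like activators that bind GAA-rich exons, were both below 0. TRA2A had the largest relative difference of all the genes lower at an unadjusted p under 0.05, at 59.4, 60.9 and 51.9 CPM in NC-shRNA and 46.2, 43.0 and 45.3 in PRMT5-shRNA. The groups did not overlap, and its log2 fold change was -0.36 with a standard error of 0.0822 and an adjusted p of 0.203 (edgeR), a difference of -22%. TRA2B was at 157, 158 and 154 against 142, 151 and 136, without overlap (log2 fold change -0.13, standard error 0.0589, adjusted p = 0.413, edgeR). The difference between the 2 TRA2 genes was not tested. Of the 4 CLK kinases, which phosphorylate SR proteins in the nucleus, 2 were below 0 and 2 above, 0 passed the unadjusted threshold in either direction, and their median log2 fold change was 0.0047. CLK1 was at 55.5, 63.6 and 65.5 in NC-shRNA and 58.5, 57.3 and 59.5 in PRMT5-shRNA, with overlapping groups (log2 fold change -0.08, standard error 0.0792, adjusted p = 0.736, edgeR). By CPM, CLK4 was the one kinase without overlap, at 13.8, 13.8 and 15.02 against 12.8, 13.3 and 12.5. By FPKM its groups overlapped, at 1.42, 1.45 and 1.62 against 1.4, 1.44 and 1.38. CLK3 was then the kinase without overlap, and higher, at 2.46, 2.28 and 2.3 FPKM in NC-shRNA against 2.55, 2.56 and 2.68 in PRMT5-shRNA.

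Of the 21 tested hnRNP genes, 19 were below 0, 12 were lower at an unadjusted p under 0.05 and 0 were higher, with a median log2 fold change of -0.16. HNRNPA2B1, which binds UAG-containing RNA and N6-methyladenosine-rich transcripts, gave the smallest p of the set. Its CPM was 1748, 1634 and 1627 in NC-shRNA and 1419, 1425 and 1402 in PRMT5-shRNA. The groups were far apart relative to their spread, and the log2 fold change was -0.24 with a standard error of 0.0485 and an adjusted p of 0.184 (edgeR). HNRNPA1, the best studied splicing repressor of the family, was at 1289, 1249.7 and 1255 against 1110.2, 1105 and 1039, also without overlap (log2 fold change -0.22, standard error 0.0487, adjusted p = 0.196, edgeR). HNRNPH2 and HNRNPH3, which bind runs of G, were both lower without overlap, at 142, 154 and 146 against 130.1, 117 and 113 for HNRNPH2 and at 211, 194 and 192 against 178, 173 and 166 for HNRNPH3. Their log2 fold changes were -0.29 and -0.21, with standard errors of 0.0726 and 0.061 and adjusted p values of 0.221 and 0.272 (edgeR). Their relative HNRNPH1 was at 151, 163 and 169 against 169, 128 and 174, with overlapping groups (log2 fold change -0.03, standard error 0.121, adjusted p = 0.932, edgeR). The low value was that of PRMT5-shRNA 2, and without that library the log2 fold change was 0.09.

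HNRNPD, also called AUF1 and known for binding AU-rich elements in unstable mRNA, was at 356, 335 and 327 CPM in NC-shRNA and 259, 312 and 278 in PRMT5-shRNA. Its paralogue HNRNPDL was at 259, 257 and 267 against 239, 234 and 229. Neither overlapped between the groups, and their log2 fold changes were -0.26 and -0.16 with standard errors of 0.0802 and 0.0491 (adjusted p = 0.286 and 0.287, edgeR). HNRNPC, which binds uridine tracts and keeps cryptic exons out of mRNA, had a larger difference but a wider spread, at 588, 495 and 607 against 499, 440.3 and 426. Its groups overlapped because NC-shRNA 2 fell just under PRMT5-shRNA 1, and the log2 fold change was -0.31 with a standard error of 0.097 (adjusted p = 0.295, edgeR). HNRNPL, HNRNPR, HNRNPAB, HNRNPA3 and HNRNPM were the other 5 hnRNP genes lower at an unadjusted p under 0.05, with log2 fold changes from -0.12 to -0.24, and of these only HNRNPM overlapped between groups. The remaining abundant genes HNRNPK, HNRNPU and HNRNPF had log2 fold changes of -0.09, -0.07 and -0.11, and HNRNPUL1 one of 0.05. By FPKM HNRNPUL1 was higher without overlap, at 39.87, 40.82 and 37.77 in NC-shRNA against 43.51, 41.91 and 42.25 in PRMT5-shRNA. HNRNPA1L2, a near-identical copy of HNRNPA1, was erratic at 35.5, 0.0866 and 2.25 CPM in NC-shRNA and 28.0, 3.99 and 26.4 in PRMT5-shRNA. Its log2 fold change of 0.62 had a standard error of 1.52 (adjusted p = 0.899, edgeR), and since the counting could split reads between it and HNRNPA1, its level is uncertain.

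Recognition of the 3′ splice site involves U2AF and the SF3A and SF3B subunits, all of which were below 0. U2AF2, the large subunit that binds the polypyrimidine tract, was at 202, 187 and 174 CPM in NC-shRNA and 162, 159.9 and 145 in PRMT5-shRNA, without overlap (log2 fold change -0.27, standard error 0.0758, adjusted p = 0.259, edgeR). U2AF1, the small subunit that contacts the terminal AG, was at 88.6, 88.4 and 80.5 against 73.3, 77.0 and 75.4, also without overlap (log2 fold change -0.19, standard error 0.0642, adjusted p = 0.311, edgeR). U2AF1 has a near-identical copy in the annotation, U2AF1L5, which held 46.6% to 50.7% of their joint counts. Summed, the pair had a log2 fold change of -0.11 and an adjusted p of 0.448 (edgeR), and U2AF1 was then no longer lower at an unadjusted p under 0.05.

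Of the 9 SF3A and SF3B genes, 9 were below 0, 6 were lower at an unadjusted p under 0.05 and 6 did not overlap, with a median log2 fold change of -0.18. SF3B3, a WD40-type scaffold of the SF3b complex, was at 434, 431 and 412 CPM in NC-shRNA and 354, 372 and 316 in PRMT5-shRNA. The groups did not overlap, the spread was wider after knockdown, and the log2 fold change was -0.29 with a standard error of 0.0713 (adjusted p = 0.218, edgeR). SF3B2, the partner of SF3B4 at the branch region, was at 358, 354 and 328 against 307, 309.7 and 296, without overlap. SF3B4 itself was at 134, 127 and 118 against 106, 113 and 107, without overlap. Their log2 fold changes were -0.19 and -0.22 with standard errors of 0.0557 and 0.0663 (adjusted p = 0.278 and 0.287, edgeR). SF3B5, a small subunit, was at 67.4, 60.4 and 55.1 against 51.5, 52.3 and 43.0 and had a log2 fold change of -0.32. SF3A1 and SF3A3, which join U2 with the SF3a complex, had log2 fold changes of -0.18 and -0.17, again without overlap. SF3B1, the subunit that clamps the branch point helix and is often mutated in cancer, was at 321, 347 and 356 in NC-shRNA and 311, 318 and 334 in PRMT5-shRNA. Its groups overlapped, and its log2 fold change of -0.09 had a standard error of 0.0613 (adjusted p = 0.581, edgeR).

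Of the 13 PRPF genes, which act mostly in the tri-snRNP and in activation of the spliceosome, 11 were below 0, 4 were lower and 1 was higher at an unadjusted p under 0.05, with a median log2 fold change of -0.14. PRPF19, the ubiquitin ligase that gives its name to the PRP19 complex, was at 213, 191 and 189 CPM in NC-shRNA and 172, 162 and 161 in PRMT5-shRNA. PRPF6, which bridges U5 and U4/U6, was at 198, 182 and 175 against 160.1, 155 and 143, and PRPF38A was at 81.0, 75.6 and 76.6 against 65.6, 67.2 and 67.1. None of the 3 overlapped between the groups. Their log2 fold changes were -0.26, -0.27 and -0.22 with standard errors of 0.0677, 0.0714 and 0.0587 (adjusted p = 0.234, 0.236 and 0.239, edgeR). PRPF8, the protein at the heart of the catalytic site, was at 765, 821 and 794 against 746, 684 and 641. These groups did not overlap, although NC-shRNA 1 and PRMT5-shRNA 1 were close, and the log2 fold change was -0.20 with a standard error of 0.0679 (adjusted p = 0.312, edgeR). PRPF40B, a U1-associated protein at a low level of 0.993 FPKM, was the only gene of the whole set higher at an unadjusted p under 0.05, at 11.1, 10.2 and 12.4 CPM against 12.4, 16.3 and 14.0. Its groups overlapped narrowly near 12.4 by CPM, and the log2 fold change of 0.34 had a standard error of 0.141 (adjusted p = 0.385, edgeR). By FPKM its groups did not overlap, at 0.96, 0.9 and 1.12 in NC-shRNA against 1.14, 1.49 and 1.3 in PRMT5-shRNA. PRPF40B no longer reached the unadjusted threshold without NC-shRNA 2, PRMT5-shRNA 2 or PRMT5-shRNA 3. PRPF3, PRPF4 and PRPF31, proteins of U4/U6, had log2 fold changes of -0.07, -0.15 and -0.02, and PRPF18 and PRPF38B had ones of -0.0092 and 0.0015.

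None of the 6 RBM genes passed the unadjusted threshold (0 lower, 0 higher) and none was without overlap, although 5 were below 0, with a median log2 fold change of -0.05. RBM10, an exon-skipping factor that is often inactivated in lung adenocarcinoma, was at 117, 101 and 104 CPM in NC-shRNA and 103, 96.2 and 88.7 in PRMT5-shRNA, with overlapping groups. Its log2 fold change was -0.16 with a standard error of 0.0835 and an adjusted p of 0.461 (edgeR). RBM17, an alternative 3′ splice site factor, had a log2 fold change of -0.19, while RBM25, RBM39 and RBM22 lay between -0.07 and -0.03. RBM5, a paralogue of RBM10, was on the other side of 0 at 0.07.

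**Figure D2:**
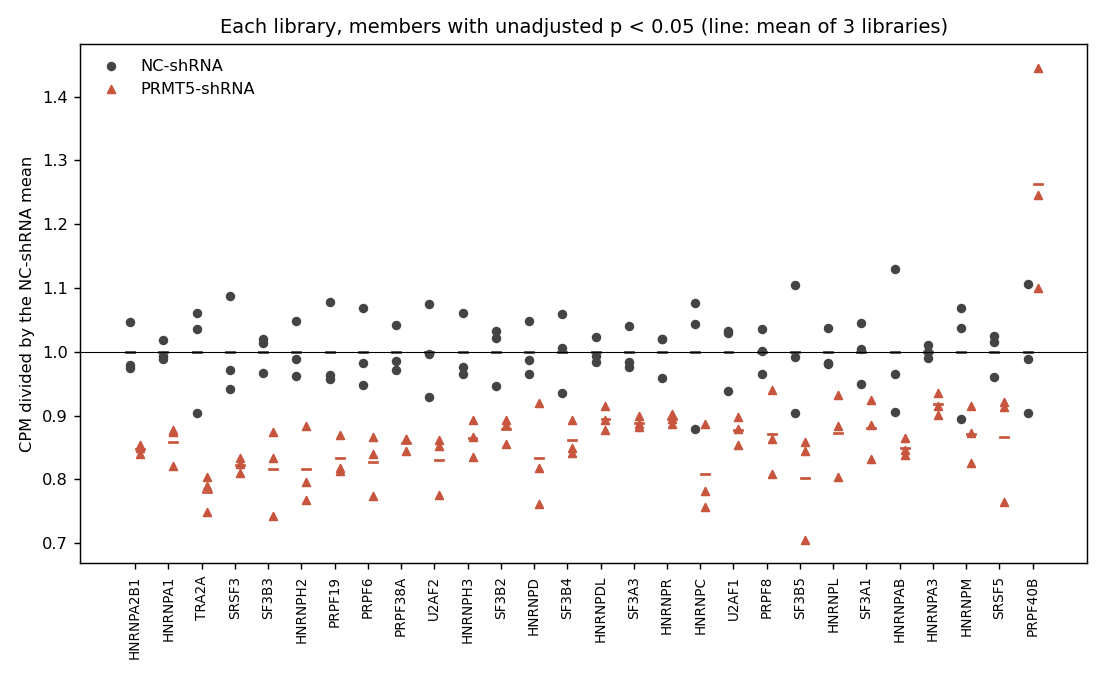
Each point is 1 library, as CPM divided by the mean of the 3 NC-shRNA libraries (y axis, ratio without unit), for the 28 genes with an unadjusted p under 0.05, ordered by p, with short lines at the mean of 3 libraries. Knockdown triangles lie under all control circles in 25 of the 27 lower genes, HNRNPC and HNRNPM being the exceptions, and PRPF40B at the right end is the one higher gene.

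The lower level was spread over all knockdown libraries. Over 67 of the genes (without HNRNPA1L2 and SRSF12), the median log2 ratio to the NC-shRNA mean was 0.05, 0.00 and -0.03 in the controls and -0.13, -0.12 and -0.17 after knockdown. The number of genes below the control mean was 20, 35 and 43 in the controls and 57, 54 and 56 after knockdown. All knockdown libraries were below all controls by the median and had more genes below the control mean, with PRMT5-shRNA 3 the lowest by median. The 1975 genes with a mean CPM of at least 100 had medians on the same side but nearer 0, at 0.03, 0.00 and -0.03 in the controls and -0.05, -0.06 and -0.07 after knockdown.

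Level and length accompanied the fold changes, and their part in the result was not tested apart from the fit given below. The splicing factor genes were abundant, with a median mean CPM of 129 against 9.36 over all genes tested. Of the 42 with a mean CPM of at least 100, 39 were below 0, against 1277 of all 1975 genes of that level. At an unadjusted p under 0.05, 22 of the 42 were lower (52.4%) and 0 were higher. Among all 1975 genes of that level 20.3% were lower and 7.9% higher. In 23 of the 42 (54.8%) the knockdown libraries lay under all controls, against 28.5% of genes of that level, and the median log2 fold change was -0.16 against -0.06. Of the 27 tested genes below that level, 5 were lower and 1 was higher, and the median was -0.10. Of all genes tested, at any level, 6.29% were lower and 6.54% higher. The shares among all genes below that level alone are not given here. Across the 69 genes, Spearman's rho of the log2 fold change with mean CPM was -0.399 and with exon-union length 0.141, both given as descriptions over genes that share libraries. Among abundant genes the fold change varied with length: with these genes cut into 4 classes of about equal size, the median log2 fold change was -0.13 in the class up to 3662 bases, -0.10 and -0.03 in the middle classes and 0.02 in the class from 8571 bases. The splicing factor genes in those classes, 7, 13, 8 and 14 in number, had medians of -0.24, -0.16, -0.19 and -0.09, each below that of all genes. With a smooth trend in length and level removed from the fit (an alternative chosen after seeing the data), 21 of the 69 genes were lower and 0 higher at an unadjusted p under 0.05 and the median was -0.09. In that fit 5.74% of all 20221 genes were lower and 6.3% higher, and 11.3% of all genes with a mean CPM of at least 100 were lower.

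**Figure D3:**
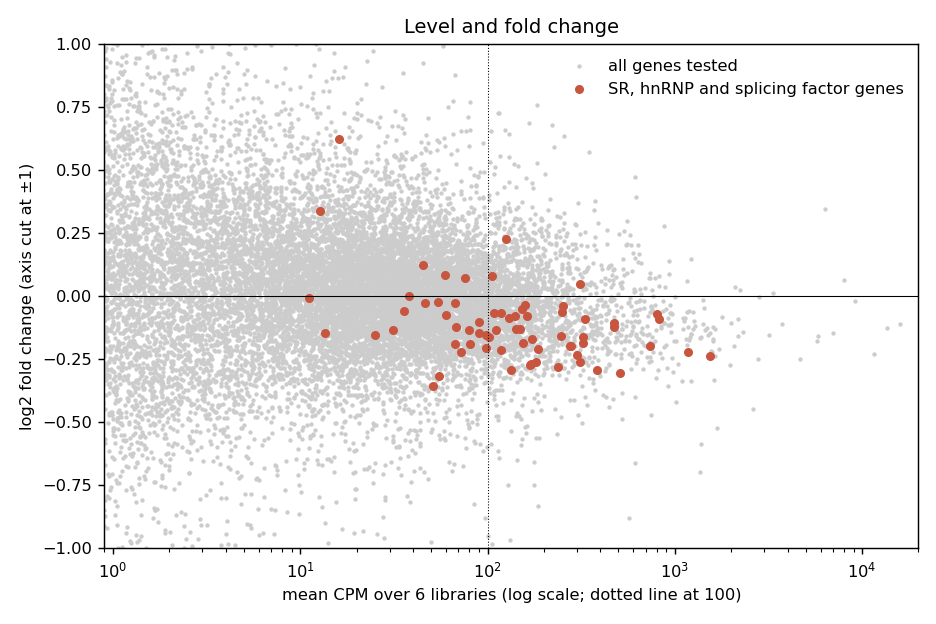
Log2 fold change (y axis) against mean CPM over 6 libraries (x axis, log scale) for all genes tested (grey) and the splicing factor genes (red), with a dotted line at a CPM of 100. Most red points right of the line lie below 0 (39 of 42, against 1277 of all 1975 genes of that level). The axes leave out 1107 grey genes beyond a log2 fold change of ±1, 4968 genes under a CPM of 0.9, and SRSF12.

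**Figure D4:**
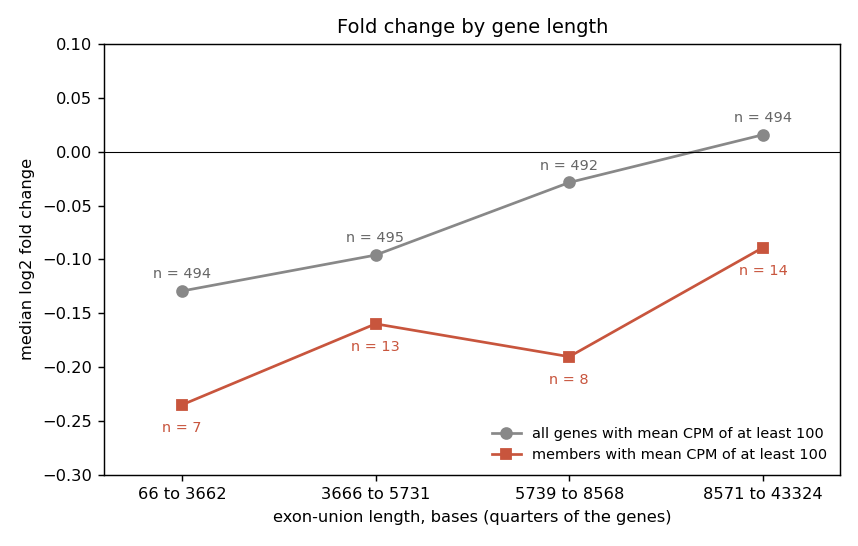
Median log2 fold change (y axis) by class of exon-union length in bases (x axis) for the 1975 genes with a mean CPM of at least 100 (grey circles) and the splicing factor genes among them (red squares), with the number of genes at each point. The grey line rises from -0.13 to 0.02, and the red points lie beneath it in each class.

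Whether single genes passed adjustment depended on the tool. DESeq2 placed 6 of the genes under an adjusted p of 0.05, all lower, against 1.36% of the 16723 genes to which it gave an adjusted p. These were TRA2A (0.0227), HNRNPA2B1 (0.0233), HNRNPA1 (0.0403), SRSF3 (0.0436), SF3B3 (0.048) and HNRNPH2 (0.0493), where the values are DESeq2 adjusted p values and edgeR gave 0 such genes. On the deposited FPKM values, tested by limma on log2(FPKM + 1), 16 genes were lower and 0 higher at an unadjusted p under 0.05, and the median log2 difference was -0.07 against 0.04 over all genes in that fit. Of the 14707 genes tested there, 5.17% were lower and 10.5% higher, and 11.4% of those with a mean CPM of at least 100 were lower.

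Other genes of the pathway, listed by role, were counted beside genes of like level. Of 100 symbols 99 were found and tested, with a median mean CPM of 85.5, and their median log2 fold change was -0.07. At an unadjusted p under 0.05, 19 were lower (19.2%) and 1 was higher, against 6.29% and 6.54% of all genes, and 0 passed adjustment (smallest adjusted p = 0.158, edgeR). Among all 4111 genes with a mean CPM of at least 50, 15.6% were lower, and among those of at least 100, 20.3%, so the share of other splicing genes was near that of genes at their level. Below 0 were 72 of the 99 (72.7%), against 60.6% of genes with a mean CPM of at least 50 and 48.8% of all genes. Without overlap, 24 (24.2%) were lower and 8 (8.08%) higher, against 10.7% and 11% of all genes, and 22.3% of genes with a mean CPM of at least 50 were lower. In place of 19 lower, the limma fit on log2(FPKM + 1) gave 8 lower and 5 higher, with a median of -0.0068, the fit with the length and level trend removed gave 10 lower, and edgeR gave 7 lower without PRMT5-shRNA 3. It was 9 without NC-shRNA 2, 10 without NC-shRNA 1, 10 without PRMT5-shRNA 1 and 12 without PRMT5-shRNA 2. The 3 lists of snRNP proteins had the lowest medians. All 6 U1 proteins were below 0 (1 lower, median -0.17), led by SNRNP70, the U1-70K protein, at a log2 fold change of -0.19 (adjusted p = 0.332, edgeR) and SNRPC at -0.22 (0.416). All 5 tested U2 proteins were below 0 (2 lower, median -0.13), with PUF60, a U2AF2 relative, at -0.33 (adjusted p = 0.244, edgeR) and SNRPA1 at -0.30 (0.287). All 10 U5 and tri-snRNP proteins were below 0 (4 lower, median -0.16), with the helicase DDX23 at -0.31 (adjusted p = 0.212, edgeR) and the cyclophilin PPIH at -0.33 (0.303).

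In the later-acting and regulatory lists genes lay on both sides of 0. Of 15 proteins of the PRP19 complex and of later spliceosomes, 9 were below 0 and 1 was lower, CWC15 at -0.26 (adjusted p = 0.31, edgeR), while PLRG1 was at 0.12 (0.441). Of 7 splicing helicases 5 were below 0 and 1 was lower, DHX15 at -0.15 (adjusted p = 0.316, edgeR), and DDX39A was at -0.22 (0.41). None of 4 kinases of SR proteins passed the unadjusted threshold (0 of 4), with SRPK2 at 0.14 (adjusted p = 0.589, edgeR) and DYRK1A at 0.30 (0.795). Of 12 SR-related proteins 7 were below 0 and 4 were lower, among them the speckle scaffold SON at -0.18 (adjusted p = 0.24, edgeR) and THRAP3 at -0.14 (0.328). Of 27 other regulators of alternative splicing 19 were below 0 and 5 were lower. FUBP1, which had the smallest p of all these lists, was at 250.3, 257 and 251 CPM in NC-shRNA and 203, 210.2 and 212 in PRMT5-shRNA. Its groups were well separated (log2 fold change -0.28, standard error 0.0486, adjusted p = 0.158, edgeR), and PCBP1 was at -0.20 (0.328). Of 13 genes of the exon junction complex and nonsense-mediated decay 9 were below 0, with EIF4A3, the helicase that anchors the complex, at -0.27 (adjusted p = 0.283, edgeR) and CASC3 the 1 higher gene at 0.20 (0.312).

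**Figure D5:**
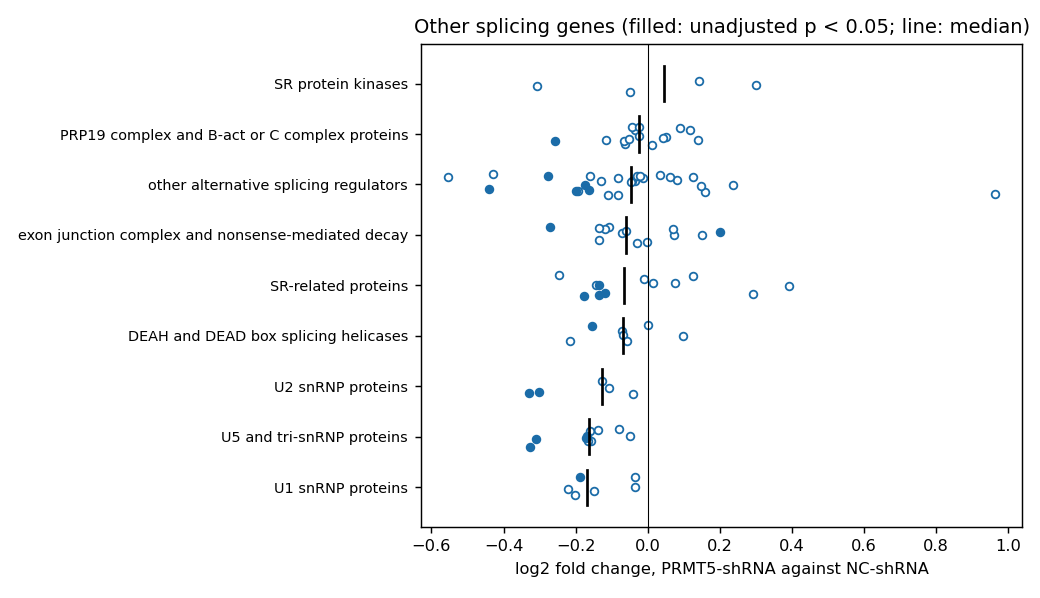
Log2 fold change of PRMT5-shRNA against NC-shRNA (x axis) for each of 99 other splicing genes in 9 lists by role (y axis), with filled points at an unadjusted p under 0.05 and a line at the median of each list. All genes of the U1, U2 and tri-snRNP lists lie left of 0, and the medians of the other lists lie between -0.07 and 0.05.

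Promoter sequence and transcript types were compared as features the naming rule did not use. RefSeq gave 77 promoters for 60 of the 69 tested genes. Promoters of the 24 genes with sequence that were lower at an unadjusted p under 0.05 (28 promoters) held TGACG in 57.1%, CCAAT in 53.6%, CCGGAAG in 28.6%, CACGTG in 25% and TATAAA in 14.3% of cases. In promoters of the other 36 genes (49 promoters) the shares were 38.8%, 36.7%, 14.3%, 8.16% and 4.08%, and in all 35116 promoters they were 21.2%, 32%, 8.52%, 6.34% and 10.7%. GGGCGG was found in 67.9%, 59.2% and 42.6% and GCATGCGC in 3.57%, 8.16% and 2.63% of these 3 groups, and the median GC content was 65%, 64% and 58%. The set of all promoters covered 27305 genes and was not limited to genes tested or to genes of like level or GC content. These shares describe letters in a window, several promoters belong to the same gene, and the difference between lower and other genes was not tested. Splicing factors often control their own RNA through exons that trigger nonsense-mediated decay. At least 1 annotated transcript of that type (GENCODE release 29) was listed for 42 of the 69 tested genes (60.9%), against 41.4% of 14606 protein-coding genes tested and 44.1% of those with a mean CPM of at least 100. It was listed for 15 of the 27 lower genes (55.6%) and for 27 of the other 42 (64.3%), and gene-level counts do not separate such transcripts from productive ones.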

How the data were processed

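RNA-seq libraries of NCI-H460 cells (3 NC-shRNA, 3 PRMT5-shRNA) were analysed from 2 tables. The submitters' processing notes name cutadapt 1.9, HISAT2 2.0.4, StringTie 1.3.4d and GRCh38, while the methods name GRCm38, a mouse assembly. The authors deposited whole-number estimated counts per gene without normalization, and FPKM values scaled by gene length and library size. Treatment of strand and overlapping genes in counting is not given in the sources used here.

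Here, counts were scaled by TMM, filtered with filterByExpr and tested with edgeR's quasi-likelihood test (edgeR 4.0.16, R 4.3.3) over all genes with Benjamini-Hochberg adjustment. DESeq2 1.42.0, limma 3.58.1 on log2 FPKM (pseudocount 1 or 0.1, minimum mean FPKM 0.5), other scalings and filters, a replicate block and leaving out each library were alternatives. Scripts were tested on simulated counts. No 2 libraries were near duplicates (smallest chi-square per degree of freedom 38.6). The members and lists were chosen with earlier results of these data known. Values are given in full for the 15 members with the smallest p, members changed over 1.5-fold and a list fixed by role, and for the 2 genes of smallest p in each other list. Further members were named after their values were seen, and 1 member counted in the totals is not reported by name here. Depth limits small differences at low counts.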

Additional observations from a re-analysis of the deposited data

How the results depend on the processing

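Over 17 alternatives, 419 of 424 fold changes of the fully described members kept their direction. A kept direction is not a stable size: the log2 fold change of HNRNPA1L2 ranged from 0.040 to 4.07. The 5 fold changes that reversed were those of SRSF1 (log2 fold change 0.0070 without PRMT5-shRNA 3) and HNRNPH1 (0.014 or 0.015 in the 3 limma fits on FPKM, 0.092 without PRMT5-shRNA 2, with the other left-out libraries giving down to -0.116). The number of members at an adjusted p under 0.05 was 6 with DESeq2 and 0 in all other fits, which for edgeR compares with 28 at an unadjusted p under 0.05 in either direction.

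At an unadjusted p under 0.05, 27 members were lower with edgeR, against 16, 16 and 17 in the limma fits on log2(FPKM + 1), log2(FPKM + 0.1) and log2(FPKM + 1) without a filter. In the same 3 fits 0 members were higher (against 1), 4 were higher without overlap (against 0), 8, 8 and 9 other splicing genes were lower (against 19) and 5 were higher (against 1). The 4 members higher without overlap by FPKM were CLK3, SRSF10, HNRNPUL1 and PRPF40B. Conversely CLK4, TRA2B, SRSF7 and PRPF8, lower without overlap by CPM, overlapped by FPKM. The median log2 fold change of members was -0.0678, -0.0742 and -0.0650 (against -0.135) and that of other splicing genes -0.0068, -0.0073 and -0.0068 (against -0.0667). The median of all genes was 0.0392, 0.0499 and 0.0133 in these fits, and the distance of members from it was -0.107, -0.124 and -0.0783, against -0.142 with edgeR. With RLE factors 0 members were higher. The cause of these differences was not tested.

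With a trend in length and level removed (chosen after seeing the data), 21 members were lower, 0 higher and 1 higher without overlap, the median of members was -0.0934, and 10 other splicing genes were lower and 4 higher. With near-identical copies summed (also chosen after seeing the data), 26 members were lower, against 6.28% of all genes in that fit.

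Leaving out 1 library gave 18 (without PRMT5-shRNA 3) to 28 lower members, 0 to 2 higher members, 34 to 38 members lower without overlap, 0 to 3 higher without overlap, and a median of members from -0.151 to -0.124. Of all genes in these fits 4.49% to 6.71% were lower, and of those with a mean CPM of at least 100, 12.3% to 24.4%. Smaller groups separate more readily, and the share of all genes without overlap in these fits is not given here. The number of other splicing genes lower ranged from 7 (without PRMT5-shRNA 3) to 20, with 9 without NC-shRNA 2, 10 without NC-shRNA 1, 10 without PRMT5-shRNA 1 and 12 without PRMT5-shRNA 2, and the number higher from 0 to 2. Fewer libraries enter these fits. No general pairing by replicate number was seen: the correlations of same-numbered deviations over all 20295 genes tested were 0.0217, -0.0278 and 0.0129. Genes of low count weigh equally in these values, which do not decide whether single genes were paired. With the replicate block, 25 members were lower and 0 higher, against 5.81% of all genes lower. In that fit 2 other splicing genes were higher, and PRMT5 had a log2 fold change of -1.62 at an adjusted p of 0.144 (edgeR). Depth limits SRSF12, whose standard error exceeded its fold change.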

Other observations

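Annotated copies took part of the counts of several members. Between 9.26% and 10.9% of the joint counts of HNRNPA1 and its 76 annotated copies, of which 40 had counts, lay on copies, and the summed log2 fold change was -0.21 (adjusted p = 0.204, edgeR) against -0.22 for HNRNPA1 alone. For HNRNPL the share on copies was 4.94% to 6.25%, for HNRNPA3 2.81% to 5.5%, for HNRNPC 3.53% to 4.46% and for HNRNPK 2.29% to 3.67%. Summed values were -0.21 for HNRNPL, -0.14 for HNRNPA3, -0.31 for HNRNPC and -0.09 for HNRNPK. Annotated transcripts that retain an intron were listed for 48 of the 69 tested members (69.6%), against 68.2% of protein-coding genes with a mean CPM of at least 100.

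NONO, a paraspeckle protein and a partner of SFPQ, had one of the larger differences among the other splicing genes and a wide spread in the controls. It was at 386, 540.2 and 621 CPM in NC-shRNA and 407, 379 and 354 in PRMT5-shRNA, a log2 fold change of -0.44 with a standard error of 0.164 (adjusted p = 0.339, edgeR). NC-shRNA 1 lay within the knockdown libraries and the other controls lay above them. NONO was chosen after its values were seen.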
